A study of Mus musculus with 9 samples.

Results

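Gene expression was compared between mouse prostate cancer cells transfected with a plasmid for interleukin-27 (IL-27) that carries the peptide pepL at its C-terminus and cells transfected with the same kind of plasmid for IL-27 that carries a control peptide. The comparison took the 6 libraries of these groups, 3 of each, out of 9 libraries in all, and was made for every gene of the count table. The design names pepL, a peptide of 7 residues (LSLITRL), as targeted to IL-6Rα, the alpha chain of the IL-6 receptor, and the control peptide as non-specific, so the comparison asks what the added peptide changes while IL-27 is delivered on both sides.

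All cells were of the TC2R line, made from TRAMP-C2 mouse prostate adenocarcinoma cells by lentiviral transduction with activated H-ras and, separately, with a second gene, so the control cells carry both as well. The 3 groups were cells given the pepL plasmid (IL27_pepL), the control-peptide plasmid (IL27_scr) or the empty pcDNA3.1 vector (plasmid control). Plasmid control is used here to place the levels. Its libraries also enter the main fit and share in the estimate of spread behind each p-value. Each well received 1.5 µg of plasmid with 2 µL of Lipofectamine 2000 for 6 h, and cells were collected 24 h after transfection began. IL-27 was therefore made by the tumour cells themselves, by whatever share of them took up plasmid, and what that share was is not given in the sources used here. Nothing in the labels says whether the replicates were separate cultures or transfections, so each p-value below reflects the scatter of these libraries alone, which may be technical in origin.

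IL-27 is a secreted cytokine of the IL-6 and IL-12 family, built from the chains encoded by Il27 and Ebi3. It binds a receptor made of Il27ra and the shared chain gp130 (Il6st), whose associated JAK kinases phosphorylate STAT3 and other STAT factors. STAT complexes, among them those that hold STAT2 and IRF9, switch on genes that interferons also induce, including antiviral effectors, guanylate-binding GTPases and the machinery that loads peptides onto MHC class I. IL-6Rα is the ligand-binding chain for IL-6, which also signals through gp130.

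Levels are given in CPM, counts scaled to TMM library sizes, and values per library are listed for replicates 1, 2 and 3. Total counts per library lay between 30013229 and 34164353 in IL27_pepL, between 30087806 and 35959983 in IL27_scr and between 27609884 and 35078027 in plasmid control. IL27_pepL replicate 3 stood apart on a first principal component with 32.4% of the variance, at 23.3, against 4.79 and 8.85 for the other IL27_pepL libraries and -12.8 to -2.10 for the IL27_scr and plasmid control libraries. IL27_pepL replicate 1 stood apart on the second component, with 16.7% of the variance, at 14.4, against -9.30 to 5.73 for all other libraries. IL27_pepL replicates 1 and 3 also differed most in their counts (chi-square divided by its degrees of freedom 32.8), where pairs within IL27_scr gave 3.69 to 8.12. Markers of the prostate epithelium, from which the line derives, were low: Cdh1 and Krt8 lay at 0.267 to 0.761 and 1.87 to 2.50 CPM in the 6 libraries compared, against 2820 to 3385 CPM for the mesenchymal gene Vim. Epcam, Krt18, Hoxb13, Tmprss2 and Pbsn had no row in the count table used here, nor had the leukocyte gene Ptprc and the endothelial gene Pecam1.

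Neither transfected chain passed the test between the peptides with all libraries in the fit, while Ebi3 passed under other settings. Il27 had 6.94, 7.49 and 8.44 CPM in IL27_pepL, against 6.82, 6.71 and 5.90 CPM in IL27_scr. Ebi3 had 9.19, 11.1 and 14.2 CPM in IL27_pepL, against 7.75, 7.40 and 8.86 CPM in IL27_scr. The log2 fold change of IL27_pepL over IL27_scr, given throughout with its standard error, was 0.23 ± 0.11 for Il27 (edgeR adjusted p = 0.236) and 0.52 ± 0.14 for Ebi3 (adjusted p = 0.0697). The threshold was a Benjamini-Hochberg adjusted p under 0.05 in edgeR's quasi-likelihood test. In both chains the groups did not overlap, since the lowest IL27_pepL library stood above the highest IL27_scr library. For Il27 these were 6.94 and 6.82 CPM. Groups that did not overlap were found for 26% of all genes tested. Ebi3 passed with DESeq2's Wald test (adjusted p = 0.0229) and without IL27_pepL replicate 1 (log2 0.67, edgeR adjusted p = 0.00451), so a difference in the amount of transgene RNA stands beside every result below, and its part in them was not tested. In plasmid control Il27 was at most 0.0364 CPM and Ebi3 at most 0.0669 CPM. The receptor genes did not pass, except Il6st without IL27_pepL replicate 1 (-0.16, edgeR adjusted p = 0.0395). Il27ra stood at 2.72, 2.88 and 3.221 CPM in IL27_pepL, against 3.09, 2.70 and 2.87 CPM in IL27_scr (0.03 ± 0.13, edgeR adjusted p = 0.928). Il6ra, the chain that pepL is targeted to, stood at 13.9, 16.2 and 13.5 CPM in IL27_pepL, against 15.1, 16.0 and 15.8 CPM in IL27_scr (-0.10 ± 0.09, adjusted p = 0.491). Il6st differed by -0.14 ± 0.04 (edgeR adjusted p = 0.103). The 95% intervals of these differences were -0.26 to 0.32, -0.29 to 0.08 and -0.23 to -0.04 on the log2 scale.

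Of 12125 genes tested, 306 changed between the peptides (2.52%): 132 were higher in IL27_pepL (1.09%) and 174 were lower (1.44%). The median log2 fold change was 0.43 in size among the higher genes and 0.35 among the lower ones, and 5 genes reached a fold of 2, all higher: Hes1, Ifi27l2a, Snora65, Irf7 and Mir155hg. In all 306 genes the 3 libraries of one group lay wholly above the 3 of the other, and this also held for 3154 genes (26%) of all tested. Such a separation therefore adds nothing to a call, and it is given below as a description. An unadjusted p under 0.05 was reached by 2823 genes (23.3%). Most differences were under a fold of 2, and many calls were lost when a single library was left out. An omission also leaves fewer libraries in the fit, and the part of that in the lost calls was not tested. When each of the 9 libraries was left out in turn, 50 of the 306 calls were kept in every omission, 28 higher and 22 lower, and no called gene changed sign in any alternative. The count fell to between 69 and 94 without IL27_pepL replicate 2 or any one IL27_scr replicate, was 197 without plasmid control replicate 1 and 1782 without IL27_pepL replicate 1, and was 272 without IL27_pepL replicate 3. Of the 2 libraries that stood apart, omission of IL27_pepL replicate 1 raised the count, while omission of IL27_pepL replicate 3 changed it little. Against plasmid control the same fit called 197 genes (1.62%) for IL27_pepL and 3 genes (0.0247%) for IL27_scr. These comparisons share libraries with each other, so their values and calls are set side by side below as a description. No overlap between them is read as a result.

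**Figure D1:**
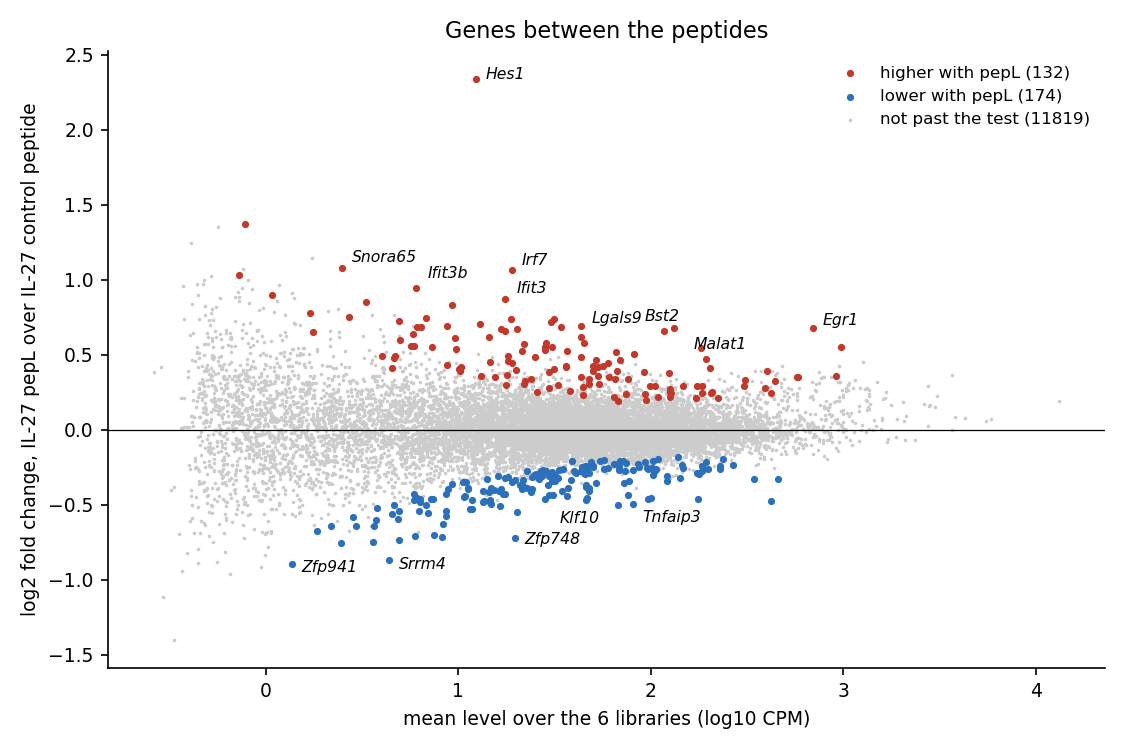
Each point is a gene, placed by its mean level over the 6 libraries compared (log10 CPM, x axis) and its log2 fold change in IL27_pepL over IL27_scr (y axis); red points are the 132 higher genes, blue points the 174 lower ones and grey points the genes that did not pass. Hes1 lies alone at 2.34, and most other called genes lie within 1 of the line at 0.

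The largest fold change and the smallest p-value among all genes tested were those of Hes1 (chromosome 16, 30064384 to 30067796, plus strand, mm10), a basic helix-loop-helix repressor best known as a target of Notch signalling that also responds to other growth signals. Its level was 19.4, 19.2 and 23.3 CPM in IL27_pepL, against 4.40, 4.07 and 3.69 CPM in IL27_scr. Every IL27_pepL library lay far above every IL27_scr library, and plasmid control, at 4.56, 5.05 and 3.94 CPM, lay with IL27_scr. The log2 fold change was 2.34 ± 0.11 (95% interval 2.10 to 2.58), a 5.06-fold difference with an edgeR adjusted p of 2.22e-07, and no omission brought the adjusted p above 9.62e-06. Set against plasmid control, the log2 difference was 2.18 for IL27_pepL and -0.16 for IL27_scr.

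Of 35 measured genes of the Notch pathway and of the repressor family of Hes1, 1 rose (Hes1), 1 fell and 33 did not pass. Over all genes tested 1.09% were higher and 1.44% lower, and counts this small are no result about the list. Its median log2 fold change was 0.01, against 0.00 over all genes. The gene that fell was Dll1, which encodes a Notch ligand, at 1.87, 1.57 and 1.66 CPM in IL27_pepL, against 2.48, 3.11 and 2.37 CPM in IL27_scr (-0.64 ± 0.15, edgeR adjusted p = 0.0473). That call was lost without IL27_pepL replicates 2 or 3, any IL27_scr replicate or any plasmid control replicate, with an adjusted p of up to 0.180, and with the length and GC offset combined with omission of IL27_pepL replicate 3, with limma-voom and in the fit of the 6 libraries alone (adjusted p = 0.0920). The receptor gene Notch2 stood at 235, 223 and 182 CPM in IL27_pepL, against 259, 239.7 and 217 CPM in IL27_scr. Its log2 fold change was -0.16 ± 0.09, and that of Notch1 was 0.15 ± 0.10 (edgeR adjusted p = 0.264 and 0.400). The ligand gene Jag1 and the related repressor gene Hes6 were at -0.29 ± 0.08 and 0.28 ± 0.16 (adjusted p = 0.0810 and 0.292). These 4 were named after their values were seen. Hes5, Hey1, Heyl and Nrarp, other known Notch target genes, had no row in the count table used here.

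**Figure D2:**
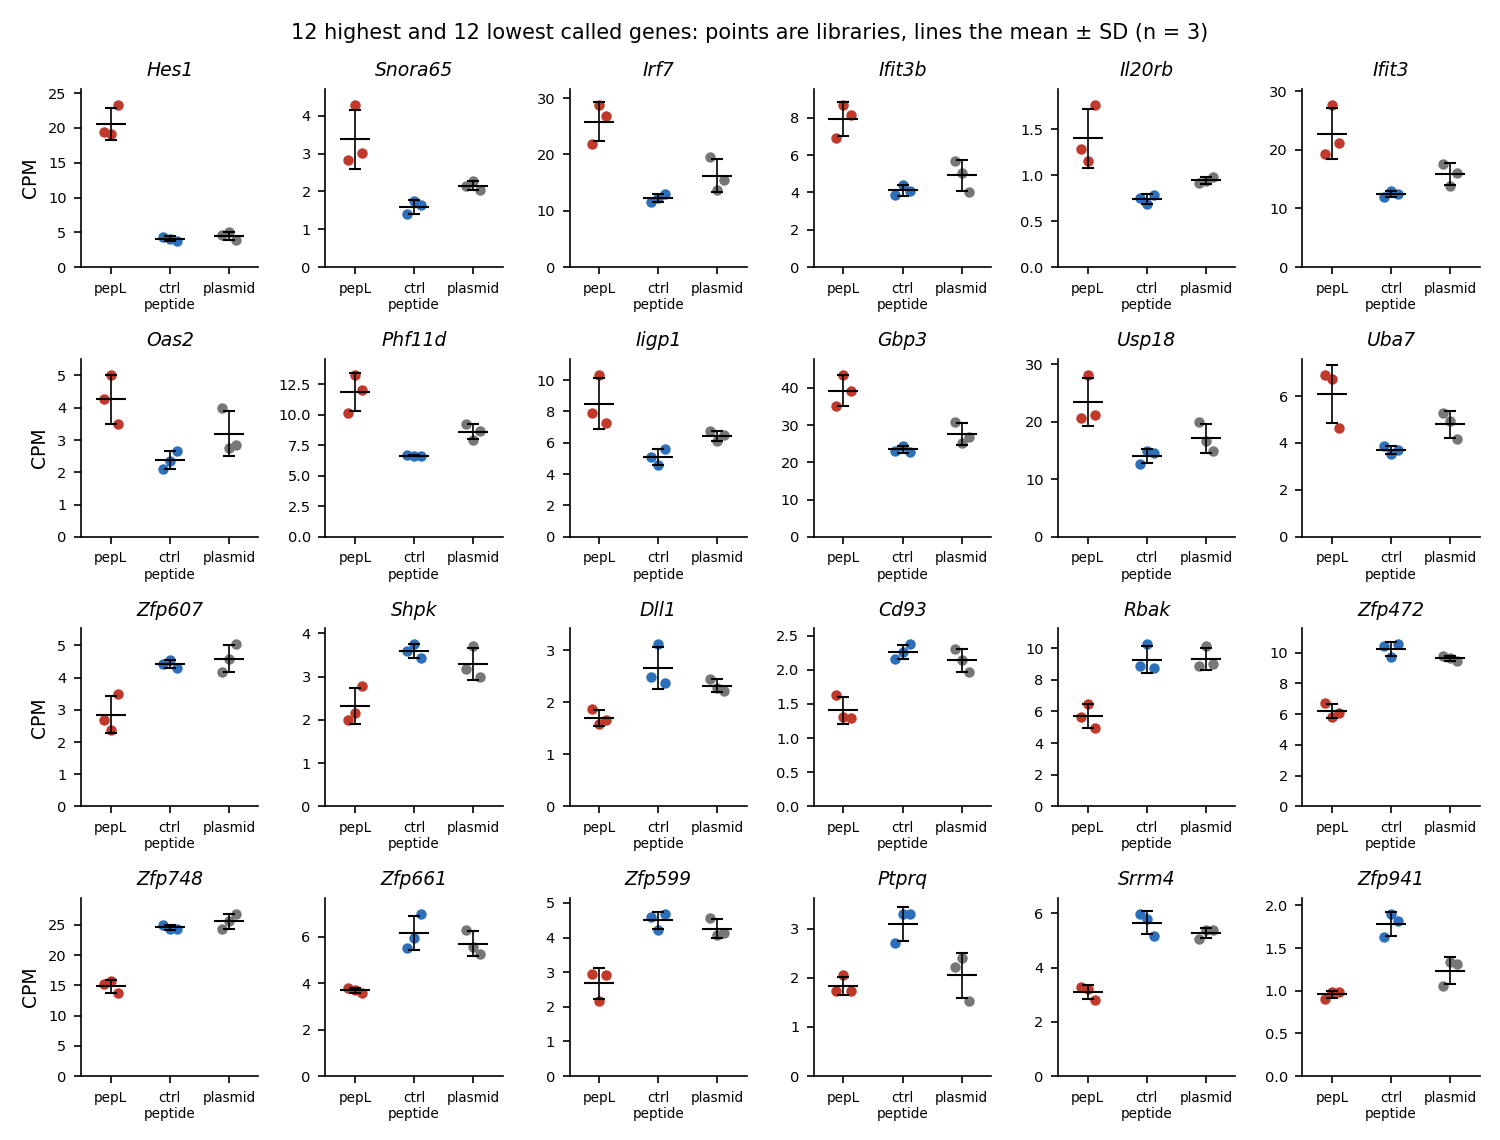
Levels (CPM, y axes from 0, each panel with its own scale) of the 12 highest and 12 lowest named genes in the 3 IL27_pepL (red), 3 IL27_scr (blue) and 3 plasmid control (grey) libraries; points are libraries and lines the mean ± SD (n = 3). The Hes1 libraries of IL27_pepL lie at 19.2 to 23.3 CPM, those of IL27_scr at 3.69 to 4.40 CPM.

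Genes that interferons induce made up a large share of the higher calls. Of 69 measured interferon-stimulated effector genes 41 rose in IL27_pepL, 0 fell and 28 missed the threshold, against 1.09% and 1.44% of all genes. Their median log2 fold change was 0.42, against 0.00 over all genes tested, and 67 of the 69 lay above 0. In bulk RNA, a change in how many cells express a gene and a change in how much each cell holds cannot be told apart.

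Irf7, the transcription factor that amplifies the type I interferon response, had 21.9, 28.7 and 26.9 CPM in IL27_pepL, against 11.6, 12.3 and 13.01 CPM in IL27_scr. Its IL27_pepL libraries were all higher than those of IL27_scr, and plasmid control (19.5, 13.7 and 15.5 CPM) lay between them. Irf7 rose 2.09-fold (log2 1.07 ± 0.12, edgeR adjusted p = 0.00139). Ifit3b, an antiviral gene of the IFIT family, had 6.94, 8.67 and 8.17 CPM in IL27_pepL, against 3.85, 4.40 and 4.08 CPM in IL27_scr. Its neighbour Ifit3 had 19.3, 27.6 and 21.2 CPM in IL27_pepL, against 11.9, 12.9 and 12.4 CPM in IL27_scr. Both rose, by 0.94 ± 0.13 and 0.87 ± 0.12 (edgeR adjusted p = 0.00313 and 0.00338). The copies are near-identical, and how reads that match both were counted is not given in the sources used here, so their single values are uncertain. Oas2, which makes the 2-5A second messenger of the antiviral RNase L system, had 4.27, 5.02 and 3.49 CPM in IL27_pepL, against 2.10, 2.37 and 2.67 CPM in IL27_scr (0.85 ± 0.18, edgeR adjusted p = 0.0241). Phf11d, a PHD finger gene, had 10.2, 13.3 and 12.1 CPM in IL27_pepL, against 6.70, 6.63 and 6.62 CPM in IL27_scr, with nearly equal values within IL27_scr (0.83 ± 0.10, edgeR adjusted p = 0.00208).

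Isg15, Uba7, Ube2l6 and Usp18 rose as single genes, and no list of the ISG15 system was examined. Isg15, which encodes a ubiquitin-like protein, had 42.8, 59.5 and 54.9 CPM in IL27_pepL, against 29.5, 36.6 and 36.0 CPM in IL27_scr (0.62 ± 0.11, edgeR adjusted p = 0.0121). Uba7, its activating enzyme, had 6.91, 6.71 and 4.64 CPM in IL27_pepL, against 3.87, 3.52 and 3.69 CPM in IL27_scr (0.73 ± 0.15, adjusted p = 0.0228). Ube2l6, its conjugating enzyme, had 16.2, 19.2 and 16.7 CPM in IL27_pepL, against 11.4, 10.9 and 11.7 CPM in IL27_scr (0.62 ± 0.08, adjusted p = 0.00230). Usp18, the protease that removes ISG15 and also restrains the interferon receptor, had 20.7, 28.1 and 21.2 CPM in IL27_pepL, against 12.6, 14.9 and 14.5 CPM in IL27_scr (0.74 ± 0.13, edgeR adjusted p = 0.0104). In each of these 4 genes the lowest IL27_pepL library exceeded the highest IL27_scr library. The groups were likewise apart in every called gene and in 26% of all genes tested. Isg15 and Ube2l6 were named after their values were seen. Cmpk2, a mitochondrial nucleotide kinase induced with the antiviral genes, and Parp9, an ADP-ribosyltransferase, rose by 0.67 ± 0.09 and 0.42 ± 0.06 (adjusted p = 0.00304 and 0.00304). Ifi27l2a, at under 1 CPM in most libraries, had 0.878, 1.22 and 1.32 CPM in IL27_pepL, against 0.437, 0.578 and 0.264 CPM in IL27_scr (1.38 ± 0.29, edgeR adjusted p = 0.0233). It lies below the level that the naming rule asks for and was named because its fold exceeded 2.

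Of the 41 calls, 15 were kept in all 9 omissions, among them Irf7, Ifit3b, Ifit3, Phf11d, Cmpk2 and Parp9. The count was 43 without IL27_pepL replicate 3 (1.06% of all genes higher) and 45 with a per-library correction for transcript length and GC content (1.8%). It was 20 without IL27_pepL replicate 2, 18, 23 and 25 without IL27_scr replicates 1, 2 and 3, and 33 in a fit of the 6 libraries alone. The call of Oas2 was lost without IL27_pepL replicate 2 or any IL27_scr replicate, with an adjusted p of up to 0.118. That of Uba7 was lost without IL27_pepL replicate 2 or any IL27_scr replicate, with an adjusted p of up to 0.111, and in the fit of the 6 libraries alone (adjusted p = 0.0531). The call of Usp18 was lost without IL27_scr replicate 1, with an adjusted p of up to 0.0577. Isg15 was lost without IL27_pepL replicate 2 or IL27_scr replicate 1, with an adjusted p of up to 0.0630, and Ifi27l2a was lost without IL27_pepL replicates 2 or 3 or IL27_scr replicates 1 or 3, with an adjusted p of up to 0.0987, and with the length and GC offset combined with omission of IL27_pepL replicate 3 and in the fit of the 6 libraries alone (adjusted p = 0.0569).

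The plasmid control lay between the groups for this list. The median log2 difference from plasmid control over the 69 genes was 0.28 in IL27_pepL and -0.17 in IL27_scr. For Irf7 these values were 0.66 and -0.41, for Phf11d 0.46 and -0.38, for Oas2 0.41 and -0.44 and for Usp18 0.45 and -0.30. Against plasmid control edgeR called 13 of the 69 in IL27_pepL (1.62% of all genes) and 0 in IL27_scr (0.0247%). Averaged over the list, IL27_pepL libraries stood 0.149, 0.331 and 0.166 above the mean of the 9 libraries on the log2 scale, and IL27_scr libraries stood at -0.223, -0.181 and -0.152. Plasmid control libraries lay at 0.0592, -0.115 and -0.0348, without overlap with either group.

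The promoters of these genes often held the letters of an interferon-stimulated response element (ISRE), the DNA site that IRF factors and complexes of STAT2 with IRF9 bind. Windows of 250 bases before to 50 bases after each start were taken from RefSeq (GRCm38.p6), and 9262 of the genes tested had one. The ISRE core was searched as GAAANNGAAA on both strands (TTTCNNTTTC on the other). It was present in 17 of 31 higher interferon-stimulated effectors with a window (54.8%). Over all measured effectors with a window, called or not, it was in 23 of 55 (41.8%). Among all genes, it was in 30 of 94 higher (31.9%), in 1 of 139 lower (0.719%) and in 331 of the 9262 (3.57%). Higher genes outside the interferon, GTPase, sensing and MHC class I lists held it in 4 of 50 (8%): Btbd2, Lgals9, Sgk1 and Tm4sf1. The windows of Irf7, Phf11d and Cmpk2 did not hold these letters. The palindrome TTCNNNGAA, the gamma-activated site that STAT dimers bind, was in 11.7% of higher, 15.8% of lower and 8.22% of all genes with a window. A match of letters is a description of the sequence and shows no binding. The 4 windows below belong to the called effectors of smallest p-value whose window held an ISRE core. They show the 250 bases before the start, 5′ to 3′ on the gene's strand, with the core and its overlaps in capitals.
Ifit3b: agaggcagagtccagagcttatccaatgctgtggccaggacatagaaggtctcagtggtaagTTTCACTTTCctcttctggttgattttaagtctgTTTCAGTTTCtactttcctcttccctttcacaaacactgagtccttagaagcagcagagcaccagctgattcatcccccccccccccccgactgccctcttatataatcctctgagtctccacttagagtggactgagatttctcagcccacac
Ifit3: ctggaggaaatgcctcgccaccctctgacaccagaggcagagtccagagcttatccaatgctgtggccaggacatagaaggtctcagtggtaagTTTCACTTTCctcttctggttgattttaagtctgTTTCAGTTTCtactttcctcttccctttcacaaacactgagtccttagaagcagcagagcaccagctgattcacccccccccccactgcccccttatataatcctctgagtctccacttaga
Bst2: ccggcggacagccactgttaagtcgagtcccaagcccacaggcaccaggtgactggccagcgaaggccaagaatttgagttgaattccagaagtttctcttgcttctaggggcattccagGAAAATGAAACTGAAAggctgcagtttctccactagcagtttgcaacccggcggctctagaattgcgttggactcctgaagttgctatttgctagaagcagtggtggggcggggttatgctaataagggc
Apol9b: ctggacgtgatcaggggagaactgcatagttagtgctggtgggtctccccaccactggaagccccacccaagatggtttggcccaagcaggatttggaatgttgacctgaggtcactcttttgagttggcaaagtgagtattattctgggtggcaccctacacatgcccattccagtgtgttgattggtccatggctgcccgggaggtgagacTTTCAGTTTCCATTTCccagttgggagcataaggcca

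These windows were chr19:34607707-34607956 (plus strand) for Ifit3b, chr19:34583279-34583528 (plus strand) for Ifit3, chr8:71537473-71537722 (minus strand) for Bst2 and chr15:77728822-77729071 (plus strand) for Apol9b. In the Ifit3b and Ifit3 windows 2 cores in the TTTC orientation lay in the same surrounding letters, with the nearest beginning 154 and 122 bases before the start. In Bst2 the 2 matches overlapped within a run of GAAA repeats that began 130 bases before the start, and in Apol9b the overlapping matches began 37 and 31 bases before it. Bst2, the membrane tether tetherin, which holds budding virions at the cell surface, had 121, 154 and 154 CPM in IL27_pepL, against 81.8, 96.3 and 93.6 CPM in IL27_scr. Apol9b, an apolipoprotein L family gene, had 37.7, 44.2 and 42.5 CPM in IL27_pepL, against 30.7, 31.2 and 30.8 CPM in IL27_scr, and its copy Apol9a is close enough in sequence that reads may be shared. Both rose, Bst2 with a log2 fold change of 0.66 ± 0.09 and Apol9b with 0.42 ± 0.06 (edgeR adjusted p = 0.00351 and 0.00487), and both calls were kept in all 9 omissions.

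Interferon-inducible GTPases, which attack vacuoles that hold intracellular pathogens, were also higher. Of 12 measured 7 rose and 5 did not pass, and all 12 lay above 0, with a median of 0.49, where 1.09% of all genes were higher. Gbp3 had 35.1, 43.5 and 39.2 CPM in IL27_pepL, against 23.1, 24.4 and 22.8 CPM in IL27_scr. Gbp2 had 24.4, 26.2 and 28.4 CPM in IL27_pepL, against 17.6, 17.6 and 17.8 CPM in IL27_scr. Neither gene had an overlap between the groups, as held for every called gene and for 26% of all genes tested. On the log2 scale Gbp3 and Gbp2 rose by 0.74 ± 0.09 and 0.57 ± 0.08 (edgeR adjusted p = 0.00139 and 0.00309), kept in all 9 omissions. Iigp1 had 7.93, 10.3 and 7.26 CPM in IL27_pepL, against 5.10, 4.59 and 5.60 CPM in IL27_scr (0.75 ± 0.13, adjusted p = 0.0112). Irgm1, a regulator of the family, had 47.6, 58.7 and 44.8 CPM in IL27_pepL, against 35.5, 35.5 and 36.9 CPM in IL27_scr (0.49 ± 0.09, adjusted p = 0.0146). The call of Iigp1 was lost without IL27_scr replicates 1 or 2, with an adjusted p of up to 0.0719, and that of Irgm1 was lost without IL27_pepL replicate 2 or any IL27_scr replicate, with an adjusted p of up to 0.0772. The count of 7 fell to 3 without IL27_pepL replicate 2 or IL27_scr replicate 3 and to 2 without IL27_scr replicate 1 or 2, was 4 in the fit of the 6 libraries alone and was 8 without IL27_pepL replicate 3. Members of the Gbp family resemble each other, and reads may be split between them.

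Genes of MHC class I antigen presentation rose in part. Of 21 measured 7 rose, 0 fell and 14 missed the threshold, with a median of 0.24, where 1.09% of all genes were higher. Tap1, which pumps peptides into the endoplasmic reticulum, had 14.6, 17.6 and 15.9 CPM in IL27_pepL, against 10.9, 9.32 and 9.29 CPM in IL27_scr and rose by 0.71 ± 0.10 (edgeR adjusted p = 0.00338). The light chain gene B2m had 335, 361 and 337 CPM in IL27_pepL, against 267, 264 and 288 CPM in IL27_scr. The loading factor gene Tapbp had 117, 122 and 108 CPM in IL27_pepL, against 91.5, 93.9 and 97.8 CPM in IL27_scr. The proteasome activator gene Psme1 had 55.2, 64.0 and 59.7 CPM in IL27_pepL, against 45.2, 49.998 and 49.2 CPM in IL27_scr. All 3 rose, by 0.33 ± 0.06, 0.29 ± 0.06 and 0.31 ± 0.06 (edgeR adjusted p = 0.00947, 0.0156 and 0.0205). Their groups did not overlap, as in every called gene and in 26% of all genes tested. Psme2, the immunoproteasome gene Psmb8 and H2-T23 were the other calls. The heavy chain genes H2-K1 and H2-D1 were at 0.24 ± 0.06 and 0.19 ± 0.08 without passing (edgeR adjusted p = 0.0558 and 0.182), and were named after their values were seen. Tap1 was kept in all 9 omissions. B2m and Tapbp were lost without IL27_pepL replicate 2 or IL27_scr replicates 1 or 2, with an adjusted p of up to 0.0609 and 0.0858. Psme1 was lost without IL27_pepL replicate 2 or any IL27_scr replicate, with an adjusted p of up to 0.108, and in the fit of the 6 libraries alone (adjusted p = 0.0603). The count of 7 was 5 without IL27_pepL replicate 3, 1 without IL27_pepL replicate 2 or IL27_scr replicate 1 or 2, 3 without IL27_scr replicate 3 and 4 without plasmid control replicate 1 or 3. It was 3 in the fit of the 6 libraries alone (0.627% of all genes higher).

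Sensors of foreign nucleic acid rose in 5 of 27 measured genes and 22 did not pass, with a median of 0.03, where 1.09% of all genes were higher. Ifi204, a DNA sensor of the p200 family, had 58.2, 62.4 and 58.6 CPM in IL27_pepL, against 45.4, 46.7 and 47.4 CPM in IL27_scr (0.36 ± 0.05, edgeR adjusted p = 0.00393). Mndal of the same family had 12.03, 11.9 and 11.6 CPM in IL27_pepL, against 8.71, 8.44 and 9.42 CPM in IL27_scr (0.42 ± 0.09, adjusted p = 0.0225). Ddx58, which encodes the RNA sensor RIG-I, had 57.5, 62.4 and 52.4 CPM in IL27_pepL, against 40.6, 43.2 and 44.3 CPM in IL27_scr (0.43 ± 0.07, adjusted p = 0.00888). Zbp1, a sensor of Z-form nucleic acid that can start necroptosis, had 10.0, 12.5 and 12.4 CPM in IL27_pepL, against 7.31, 7.48 and 8.04 CPM in IL27_scr (0.61 ± 0.11, adjusted p = 0.0112), and Dhx58 was the remaining call. In Zbp1 plasmid control (7.79, 6.92 and 8.71 CPM) lay with IL27_scr: the log2 difference from plasmid control was 0.58 in IL27_pepL and -0.04 in IL27_scr. The call of Ifi204 was kept in all 9 omissions. That of Ddx58 was lost without IL27_scr replicate 1, with an adjusted p of up to 0.0532. Zbp1 was lost without IL27_pepL replicate 2 or IL27_scr replicates 1 or 2, with an adjusted p of up to 0.0610. Mndal was lost without IL27_pepL replicate 2 or any IL27_scr replicate, with an adjusted p of up to 0.117. The count of 5 was 2 without IL27_pepL replicate 2 or IL27_scr replicate 2, 1 without IL27_scr replicate 1 and 3 without IL27_scr replicate 3. The p200 genes are close copies, and reads may be split between them.

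**Figure D3:**
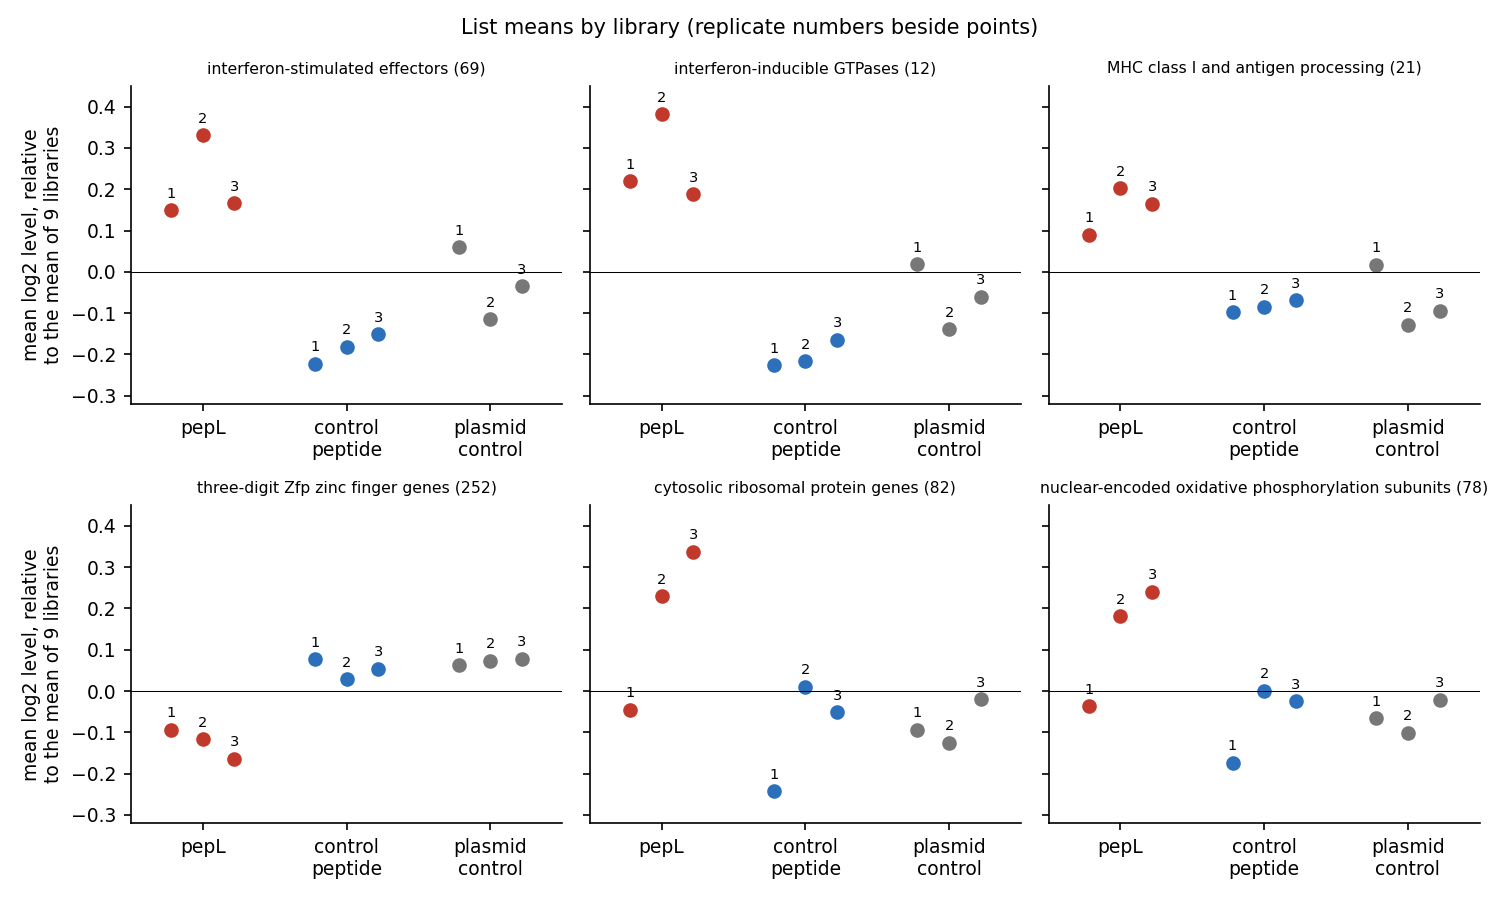
Mean log2 level of each list's measured genes (number in brackets) in every library, relative to the mean of the 9 libraries (y axis), for IL27_pepL (red), IL27_scr (blue) and plasmid control (grey), with replicate numbers beside the points. The interferon-stimulated effectors of IL27_pepL lie at 0.149 to 0.331 and those of IL27_scr at -0.223 to -0.152, while the cytosolic ribosomal protein genes of IL27_pepL range from -0.0455 in replicate 1 to 0.338 in replicate 3.

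Among the components of the JAK-STAT pathway itself, 2 members of the complex that type I interferon activates rose. Of 15 receptor chains, kinases and STATs 2 rose, Stat2 and Irf9, and 13 did not pass, where 1.09% of all genes were higher. Counts of 1 or 2, here and for the inhibitors and regulatory factors below, are no result about the lists. Stat2 had 33.2, 36.5 and 31.3 CPM in IL27_pepL, against 23.3, 22.4 and 23.2 CPM in IL27_scr (0.55 ± 0.09, edgeR adjusted p = 0.00947). Irf9 had 47.5, 57.6 and 55.5 CPM in IL27_pepL, against 39.5, 45.4 and 41.9 CPM in IL27_scr (0.34 ± 0.07, adjusted p = 0.0295). Both genes stood higher in all IL27_pepL libraries, a separation found in every called gene and in 26% of all genes tested. The call of Stat2 was lost without IL27_pepL replicate 2 or IL27_scr replicate 2, with an adjusted p of up to 0.0559. That of Irf9 was lost without IL27_pepL replicates 2 or 3, any IL27_scr replicate or plasmid control replicates 1 or 3, with an adjusted p of up to 0.143, and in the fit of the 6 libraries alone (adjusted p = 0.0749). Stat3 was at -0.03 ± 0.05 (95% interval -0.14 to 0.09, edgeR adjusted p = 0.785). Of 17 inhibitors of the pathway 1 rose, Usp18, and the STAT3 feedback inhibitor Socs3 was at 35.7, 34.0 and 32.1 CPM in IL27_pepL, against 44.5, 39.1 and 40.6 CPM in IL27_scr (-0.28 ± 0.08, adjusted p = 0.0709). Of 8 interferon regulatory factors 1 rose, Irf7, whereas Irf1, a factor of the same family that interferon-gamma induces, was at 0.05 ± 0.07 (edgeR adjusted p = 0.731). Stat3, Socs3 and Irf1 were named after their values were seen.

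STAT3 and acute-phase targets had 0 of 26 higher and 2 lower, with a median of -0.01, where 1.09% of all genes were higher and 1.44% lower. The cytokine gene Lif fell and had 30.3, 27.4 and 29.6 CPM in IL27_pepL, against 38.2, 35.9 and 35.1 CPM in IL27_scr (-0.32 ± 0.06, edgeR adjusted p = 0.0146). Myc, a growth-promoting transcription factor gene, had 195, 207 and 222 CPM in IL27_pepL, against 242, 256 and 248 CPM in IL27_scr (-0.26 ± 0.06, adjusted p = 0.0491). Both fell and were lower in every IL27_pepL library than in any IL27_scr library. Groups lay apart in this way in every called gene and in 26% of all genes tested. Of 10 measured receptors of the IL-6 family Il11ra1, the IL-11 binding chain, rose (0.35 ± 0.08, adjusted p = 0.0434). Il20rb, a receptor chain for IL-20 family cytokines outside that list, had 1.29, 1.16 and 1.76 CPM in IL27_pepL, against 0.757, 0.688 and 0.791 CPM in IL27_scr (0.90 ± 0.21, adjusted p = 0.0423). The call of Lif was lost without IL27_pepL replicate 2 or IL27_scr replicates 1 or 2, with an adjusted p of up to 0.0835. That of Myc was lost without IL27_pepL replicate 2, any IL27_scr replicate or plasmid control replicates 1 or 3, with an adjusted p of up to 0.168. Myc also missed the threshold with DESeq2 size factors, the filter at 1 CPM and the fit of 6 libraries. Il11ra1 was lost without IL27_pepL replicates 2 or 3, any IL27_scr replicate or any plasmid control replicate, with an adjusted p of up to 0.141, and with the length and GC offset combined with omission of IL27_pepL replicate 3 and in the fit of the 6 libraries alone (adjusted p = 0.0953). Il20rb was lost without IL27_pepL replicates 2 or 3, any IL27_scr replicate or plasmid control replicates 1 or 3, with an adjusted p of up to 0.149, and with the length and GC offset combined with omission of IL27_pepL replicate 3 and in the fit of the 6 libraries alone (adjusted p = 0.0871).

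Immune ligands and secreted mediators held 1 or 2 calls in a direction, where 1.09% of all genes were higher and 1.44% lower. Counts of this size are no result about these lists. Lgals9, a galectin that regulates T cells and is itself inducible by interferon, had 51.0, 58.3 and 50.5 CPM in IL27_pepL, against 31.9, 32.6 and 34.5 CPM in IL27_scr, and plasmid control lay between at 41.3, 38.5 and 40.9 CPM. It rose by 0.69 ± 0.06 (log2) with an edgeR adjusted p of 2.98e-04, the next smallest p after Hes1, and was kept in all 9 omissions. Pvr, the ligand of the lymphocyte receptors DNAM-1 and TIGIT, had 164, 163 and 144 CPM in IL27_pepL, against 191, 194 and 189 CPM in IL27_scr and fell (-0.29 ± 0.06, adjusted p = 0.0195). These were the calls among 20 measured ligands. Of 28 chemokines and cytokines Cxcl12 and Mif rose (0.22 ± 0.05 and 0.36 ± 0.08; edgeR adjusted p = 0.0403 and 0.0405), Lif fell and 25 did not pass. The call of Pvr was lost without IL27_pepL replicate 2 or any IL27_scr replicate, with an adjusted p of up to 0.0996. Those of Cxcl12 and Mif were lost without IL27_pepL replicate 2, any IL27_scr replicate or plasmid control replicates 1 or 3, with an adjusted p of up to 0.163 and 0.162, and in the fit of the 6 libraries alone (adjusted p = 0.0667 and 0.0764). Mif, a short transcript, was at 0.11 with the length and GC offset and no longer passed (adjusted p = 0.130).

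Growth-signal genes moved in both directions. Of 46 immediate early genes, those switched on within minutes of stimulation, 6 were higher and 3 lower, with a median of 0.01, where 1.09% of all genes were higher and 1.44% lower. Egr1, a zinc finger activator, had 924, 860.4 and 775 CPM in IL27_pepL, against 568, 476 and 557 CPM in IL27_scr and rose by 0.68 ± 0.09 (edgeR adjusted p = 0.00208). Dusp1, a phosphatase that switches off JNK and p38, had 78.0, 78.4 and 75.8 CPM in IL27_pepL, against 54.4, 52.5 and 55.5 CPM in IL27_scr. The pseudokinase gene Trib1 had 68.7, 62.1 and 63.8 CPM in IL27_pepL, against 50.1, 48.1 and 46.9 CPM in IL27_scr. The matricellular gene Cyr61 had 677, 641 and 616 CPM in IL27_pepL, against 517, 488 and 506 CPM in IL27_scr. Within each of the 4 genes the groups were well separated, and plasmid control lay with IL27_scr: Egr1 had 532, 476 and 582 CPM there and Dusp1 52.3, 47.4 and 55.5 CPM. Dusp1, Trib1 and Cyr61 rose by 0.52 ± 0.06, 0.42 ± 0.05 and 0.36 ± 0.05 (adjusted p = 0.00120, 0.00221 and 0.00304). All 4 calls were kept in all 9 omissions, as was that of Sgk1, a kinase downstream of PI3K. The remaining higher gene, Klf2, at 0.30 ± 0.05 (edgeR adjusted p = 0.0106), was lost without IL27_pepL replicate 2 or IL27_scr replicates 2 or 3, with an adjusted p of up to 0.0706. The 3 lower genes were Klf10, Mafk and Myc, and 1 of 46 was lower without IL27_pepL replicate 2, IL27_scr replicate 1 or 3 or plasmid control replicate 1 or 3, in the fit of the 6 libraries alone, with DESeq2 size factors and with the filter at 1 CPM, against 7 with the length and GC offset (2.05% of all genes lower). The count of 6 was 10 without IL27_pepL replicate 1 (9.22% of all genes higher), 10 with DESeq2's Wald test (3.43%) and 9 without IL27_pepL replicate 3. Klf10, a repressor induced by TGF-beta and by growth factors, had 53.6, 54.5 and 59.1 CPM in IL27_pepL, against 77.1, 79.9 and 78.9 CPM in IL27_scr (-0.50 ± 0.06, adjusted p = 0.00221), kept in all 9 omissions.

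Ctgf and Cyr61, targets of the YAP-TEAD factors, were the calls among 40 genes of that pathway. The median of the 40 was 0.01, and 1.09% of all genes were higher. Ctgf, which encodes connective tissue growth factor, had 81.1, 80.4 and 79.9 CPM in IL27_pepL, against 57.7, 58.4 and 59.0 CPM in IL27_scr. It rose by 0.46 ± 0.04 (edgeR adjusted p = 2.98e-04) and was kept in all 9 omissions. The 78 matrix, integrin and protease genes had 0 calls with edgeR, 7 with DESeq2 and 1 with limma-voom, and 18 reached an unadjusted p under 0.05; the smallest p was that of Sparc (0.18 ± 0.04, edgeR adjusted p = 0.0510).

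Genes of ERK output and its feedback held lower calls. Of 49 measured 0 were higher and 5 lower, and 32 lay below 0, with a median of -0.06, where 1.44% of all genes were lower and the median was 0.00. The highest log2 fold change in this list was 0.17, so the higher immediate early genes above, Egr1 among them, are outside it. The growth factor gene Hbegf had 163, 171 and 172 CPM in IL27_pepL, against 195, 206 and 196 CPM in IL27_scr. The ERK phosphatase gene Dusp6 had 82.8, 76.4 and 79.9 CPM in IL27_pepL, against 95.8, 94.4 and 92.9 CPM in IL27_scr. Dusp8 had 25.4, 27.6 and 23.6 CPM in IL27_pepL, against 35.3, 31.98 and 31.4 CPM in IL27_scr. They fell by small amounts, with log2 fold changes of -0.24 ± 0.05, -0.24 ± 0.05 and -0.36 ± 0.07 (edgeR adjusted p = 0.0298, 0.0162 and 0.0218), and Lif and Myc were the other calls. In these 3 genes every IL27_pepL library lay below every IL27_scr library. A separation of the groups held for every called gene and for 26% of all genes tested. The call of Hbegf was lost without IL27_pepL replicate 2, any IL27_scr replicate or plasmid control replicate 1, with an adjusted p of up to 0.138. Dusp6 was lost without IL27_pepL replicate 2 or any IL27_scr replicate, with an adjusted p of up to 0.0840. Dusp8 was lost without any IL27_scr replicate, with an adjusted p of up to 0.110, and in the fit of the 6 libraries alone (adjusted p = 0.0521). The count of 5 was 5 without IL27_pepL replicate 3, 1 without IL27_pepL replicate 2 or IL27_scr replicate 3 and 0 without IL27_scr replicate 1 or 2. It was 3 without plasmid control replicate 1 or in the fit of the 6 libraries alone (0.734% of all genes lower), 8 with DESeq2's Wald test (3.11%) and 9 without IL27_pepL replicate 1 (5.48%).

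NF-kB feedback genes and targets had 0 of 33 higher and 2 lower, where 1.44% of all genes were lower. Tnfaip3, the ubiquitin-editing enzyme A20 that shuts off NF-kB signalling, had 69.9, 68.9 and 62.6 CPM in IL27_pepL, against 92.4, 99.0 and 92.4 CPM in IL27_scr, with plasmid control at 96.0, 102 and 95.5 CPM. It fell (-0.49 ± 0.05, edgeR adjusted p = 0.00120), and the call was kept in all 9 omissions. Rel, an NF-kB subunit, had 8.95, 10.5 and 9.70 CPM in IL27_pepL, against 13.5, 12.4 and 12.4 CPM in IL27_scr (-0.39 ± 0.08, adjusted p = 0.0232), which was lost without any IL27_scr replicate, with an adjusted p of up to 0.120. In the fit of the 6 libraries alone and with the length and GC offset Rel had an adjusted p of 0.0654 and 0.0589. Among BMP and TGF-beta targets 2 of 28 fell, Klf10 and the repressor gene Tgif1 (-0.24 ± 0.05, adjusted p = 0.0228). The call of Tgif1 was lost without IL27_pepL replicate 2 or any IL27_scr replicate, with an adjusted p of up to 0.124, and in the fit of the 6 libraries alone (adjusted p = 0.0531).

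Genes for zinc finger proteins gave more lower calls than any other list examined. Many genes with Zfp names encode DNA-binding proteins of the KRAB class, which recruit the corepressor Trim28 to silence transposable elements and other targets. Of 252 measured Zfp genes with a 3-digit number 41 fell, 0 rose and 211 missed the threshold, against 1.44% of all genes lower. Their median log2 fold change was -0.16, against 0.00 over all genes, and 215 of the 252 lay below 0. Over all 318 genes with a Zfp name, a wider list added after the values were seen, 60 were lower, 0 were higher and the median was -0.18. The 60 were 15 to 19 without IL27_pepL replicate 2 or any IL27_scr replicate, 48 without IL27_pepL replicate 3, 33 in the fit of the 6 libraries alone and 113 without IL27_pepL replicate 1 (5.48% of all genes lower).

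Zfp748 had 15.2, 15.7 and 13.7 CPM in IL27_pepL, against 25.0, 24.4 and 24.4 CPM in IL27_scr and fell, with a log2 fold change of -0.72 ± 0.07 (edgeR adjusted p = 2.98e-04). Zfp472 had 6.73, 5.85 and 6.10 CPM in IL27_pepL, against 10.5, 9.74 and 10.5 CPM in IL27_scr (-0.72 ± 0.08, adjusted p = 0.00139). Zfp661 had 3.77, 3.71 and 3.59 CPM in IL27_pepL, against 5.54, 5.97 and 6.98 CPM in IL27_scr (-0.73 ± 0.12, adjusted p = 0.00750). In these genes plasmid control lay with IL27_scr, at 24.3, 25.7 and 26.8 CPM for Zfp748 and 9.81, 9.63 and 9.47 CPM for Zfp472. Zfp113 and Zfp708 followed at -0.51 ± 0.07 and -0.57 ± 0.09 (edgeR adjusted p = 0.00309 and 0.00553). Rbak, a KRAB zinc finger gene whose protein binds the retinoblastoma protein, had 5.62, 6.48 and 4.98 CPM in IL27_pepL, against 8.86, 10.2 and 8.73 CPM in IL27_scr (-0.70 ± 0.11, adjusted p = 0.00719). All 6 calls were kept in all 9 omissions.

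Some lower zinc finger genes were scarce. Zfp941, the lowest of the named genes, had 0.907, 0.980 and 0.983 CPM in IL27_pepL, against 1.63, 1.90 and 1.81 CPM in IL27_scr (-0.90 ± 0.18, edgeR adjusted p = 0.0191), and in it plasmid control (1.06, 1.34 and 1.31 CPM) lay between the groups. Zfp599 had 2.96, 2.17 and 2.92 CPM in IL27_pepL, against 4.60, 4.21 and 4.68 CPM in IL27_scr (-0.75 ± 0.13, adjusted p = 0.0120). Zfp607 had 2.69, 2.38 and 3.49 CPM in IL27_pepL, against 4.43, 4.54 and 4.28 CPM in IL27_scr (-0.64 ± 0.14, adjusted p = 0.0314). The call of Zfp941 was lost without IL27_pepL replicate 2 or any IL27_scr replicate, with an adjusted p of up to 0.0990. Zfp599 was lost without IL27_pepL replicate 2 or IL27_scr replicates 1 or 3, with an adjusted p of up to 0.0580. Zfp607 was lost without IL27_pepL replicate 2 or any IL27_scr replicate, with an adjusted p of up to 0.124, and in the fit of the 6 libraries alone (adjusted p = 0.0670).

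Other zinc finger families held lower calls as well. Of 68 BTB, SCAN and Krueppel-like zinc finger genes 6 were lower and 1 was higher, with a median of -0.12, where 1.44% of all genes were lower. Zbtb26 had 41.1, 39.7 and 39.7 CPM in IL27_pepL, against 53.9, 52.1 and 51.1 CPM in IL27_scr and fell (-0.38 ± 0.05, edgeR adjusted p = 0.00208). Klf10, Rbak, Zbtb39, Zbtb43 and Zbtb6 also fell, while Klf2 rose. The 6 lower calls of this list were 3 without IL27_scr replicate 1 or 2, 4 without IL27_pepL replicate 2 or IL27_scr replicate 3, 10 with DESeq2's Wald test (3.11% of all genes lower) and 11 without IL27_pepL replicate 1 (5.48%). The 30 genes of the KRAB corepressor complex had 0 calls with edgeR, DESeq2 or limma-voom and 5 at an unadjusted p under 0.05. The one with the smallest p, the histone methyltransferase gene Ehmt2, was at 0.12 ± 0.04 (edgeR adjusted p = 0.140). Averaged over the 252 genes, IL27_pepL libraries stood at -0.0937, -0.117 and -0.164 relative to the mean of the 9 libraries on the log2 scale, IL27_scr libraries at 0.0767, 0.0290 and 0.0542 and plasmid control libraries at 0.0621, 0.0732 and 0.0786. The median difference from plasmid control was -0.21 in IL27_pepL and -0.02 in IL27_scr. The count of 41 was 32 without IL27_pepL replicate 3 (1.19% of all genes lower), 83 without IL27_pepL replicate 1 (with 5 higher; 5.48% of all genes lower), 13 without IL27_pepL replicate 2, 13, 12 and 13 without IL27_scr replicates 1, 2 and 3, 24 in the fit of 6 libraries and 41 with the length and GC offset (2.05%). By chromosome, the 60 lower Zfp-named genes included 13 of 82 measured on chromosome 7, 12 of 41 on chromosome 17, 10 of 33 on chromosome 13 and 5 of 20 on chromosome 8.

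Among the lower calls with a name, a mean of at least 1 CPM and no place in the zinc finger lists, the lowest fold change was that of Srrm4, a splicing regulator that includes neuronal microexons and that has been tied to neuroendocrine change in prostate tumours. It had 3.28, 3.21 and 2.81 CPM in IL27_pepL, against 5.97, 5.80 and 5.17 CPM in IL27_scr and plasmid control 5.05, 5.38 and 5.39 CPM, and fell (-0.86 ± 0.11, edgeR adjusted p = 0.00208), kept in all 9 omissions. It was the sole call among 19 measured neuroendocrine and neuronal splicing genes, where 1.44% of all genes were lower. A count this small is no result about the list. Ptprq, a receptor phosphatase gene, had 1.73, 2.05 and 1.73 CPM in IL27_pepL, against 2.71, 3.30 and 3.29 CPM in IL27_scr (-0.75 ± 0.17, adjusted p = 0.0378). Cd93, a surface receptor gene, had 1.64, 1.31 and 1.29 CPM in IL27_pepL, against 2.16, 2.26 and 2.37 CPM in IL27_scr (-0.67 ± 0.16, adjusted p = 0.0405). Shpk, a sugar kinase gene, had 1.99, 2.17 and 2.78 CPM in IL27_pepL, against 3.58, 3.74 and 3.43 CPM in IL27_scr (-0.64 ± 0.15, adjusted p = 0.0378). In Ptprq plasmid control (2.22, 2.41 and 1.53 CPM) lay nearer to IL27_pepL, whereas in Cd93 and Shpk it lay nearer to IL27_scr. The call of Ptprq was lost without IL27_pepL replicates 2 or 3, any IL27_scr replicate or plasmid control replicate 1, with an adjusted p of up to 0.142, and with the length and GC offset combined with omission of IL27_pepL replicate 3. Cd93 was lost without IL27_pepL replicates 2 or 3, any IL27_scr replicate or plasmid control replicates 1 or 3, with an adjusted p of up to 0.127, and with the length and GC offset combined with omission of IL27_pepL replicate 3 and in the fit of the 6 libraries alone (adjusted p = 0.0783). Shpk was lost without IL27_pepL replicate 2, any IL27_scr replicate or plasmid control replicates 1 or 3, with an adjusted p of up to 0.138, and in the fit of the 6 libraries alone (adjusted p = 0.0688). Nabp1, a single-stranded DNA-binding protein gene, had 65.3, 65.6 and 62.3 CPM in IL27_pepL, against 86.3, 88.3 and 86.2 CPM in IL27_scr and fell by little but evenly (-0.43 ± 0.05, edgeR adjusted p = 0.00139), kept in all 9 omissions.

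Lists for stress, death, metabolism and growth held 1 or 2 calls in a direction, where 1.09% of all genes were higher and 1.44% lower. Counts this small are no result about the lists, so their genes are given singly. Death receptors, caspases and BCL-2 genes had 1 higher of 47, Casp12 (0.30 ± 0.07, edgeR adjusted p = 0.0487). P53 targets had 1 lower of 42, the ectodysplasin receptor gene Eda2r (-0.44 ± 0.09, adjusted p = 0.0191). ER chaperones and unfolded protein response genes had 1 lower of 49, the sensor gene Ern1 (-0.31 ± 0.07, adjusted p = 0.0277). The cystine transporter gene Slc7a11, the call among ATF4 targets (1 lower of 52) and NRF2 targets (1 lower of 40), had 154, 156 and 137 CPM in IL27_pepL, against 205, 219.8 and 187 CPM in IL27_scr (-0.46 ± 0.10, adjusted p = 0.0275). Of the ATF4 targets 42 lay below 0 (median -0.10), while of the NRF2 targets 29 lay above 0 (median 0.09), against the direction of that call. Glycolysis and hypoxia genes had 1 lower of 49, Pfkfb3 (-0.27 ± 0.06, adjusted p = 0.0384), although 37 of the 49 lay above 0, with a median of 0.12. Cholesterol and fatty acid genes had 1 higher of 47, the receptor gene Nr1h2 (0.28 ± 0.07, edgeR adjusted p = 0.0482). Solute carriers had 2 lower of 189, Slc7a11 and the zinc exporter gene Slc30a1 (-0.41 ± 0.07, adjusted p = 0.0104). TRIM genes had 2 higher, Trim30a and Trim14 (0.46 ± 0.10 and 0.56 ± 0.13), and 2 lower, Trim59 and Trim32 (-0.26 ± 0.05 and -0.25 ± 0.05), of 38. Among Ras and prostate lineage genes 1 of 15 fell, the metalloreductase gene Steap2 (-0.23 ± 0.05, adjusted p = 0.0371). In RNA polymerase I and ribosome biogenesis 1 of 76 fell, Taf1a (-0.41 ± 0.08, adjusted p = 0.0228).

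No gene passed edgeR's test or limma-voom among 34 heat shock genes, 65 DNA replication genes, 71 mitosis genes or 53 translation factors. An unadjusted edgeR p under 0.05 was met by 5, 11, 17 and 12 of them, and DESeq2's Wald test called 1, 4, 3 and 1. Their members of smallest p were Dnajb1 (0.18 ± 0.05), E2f2 (-0.27 ± 0.07), Cenpa (0.28 ± 0.07) and Eif4e2 (0.15 ± 0.05), with edgeR adjusted p = 0.0702, 0.0561, 0.0539 and 0.103. Markers of other cells were few and had 0 calls with edgeR, DESeq2 or limma-voom: 4 macrophage, 1 lymphocyte, 3 endothelial and 5 epithelial genes were measured, of which 1, 0, 1 and 2 had an unadjusted edgeR p under 0.05. Their members of smallest p were Mrc1 (-0.23 ± 0.09), Lck (0.14 ± 0.12), Kdr (-0.48 ± 0.18) and Krt19 (0.33 ± 0.12), with edgeR adjusted p = 0.160, 0.532, 0.140 and 0.119. The ribosomal RNA gene Rn45s was at -0.00 ± 0.16 between the peptides and Lars2 at 0.09 ± 0.14 (edgeR adjusted p = 0.996 and 0.743).

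The calls in these lists were lost when single libraries were left out. Each omission also leaves fewer libraries in the fit, and the part of that in a lost call was not tested. All 13 (Casp12, Eda2r, Ern1, Slc7a11, Pfkfb3, Nr1h2, Slc30a1, Trim30a, Trim14, Trim59, Trim32, Steap2 and Taf1a) were lost without IL27_scr replicate 2, and all but Slc30a1 without IL27_pepL replicate 2. Their largest adjusted p over the omissions ranged from 0.0602 for Slc30a1 to 0.181 for Casp12. Casp12, Ern1, Slc7a11, Pfkfb3, Nr1h2, Trim14 and Steap2 were also lost without IL27_pepL replicate 3. In the fit of the 6 libraries alone Casp12, Pfkfb3, Nr1h2, Trim30a, Trim59, Trim32 and Steap2 missed the threshold, with an adjusted p from 0.0526 for Trim59 to 0.0859 for Casp12. Steap2 and Nr1h2 also missed the threshold with the length and GC offset (adjusted p = 0.150 and 0.102).

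**Figure D4:**
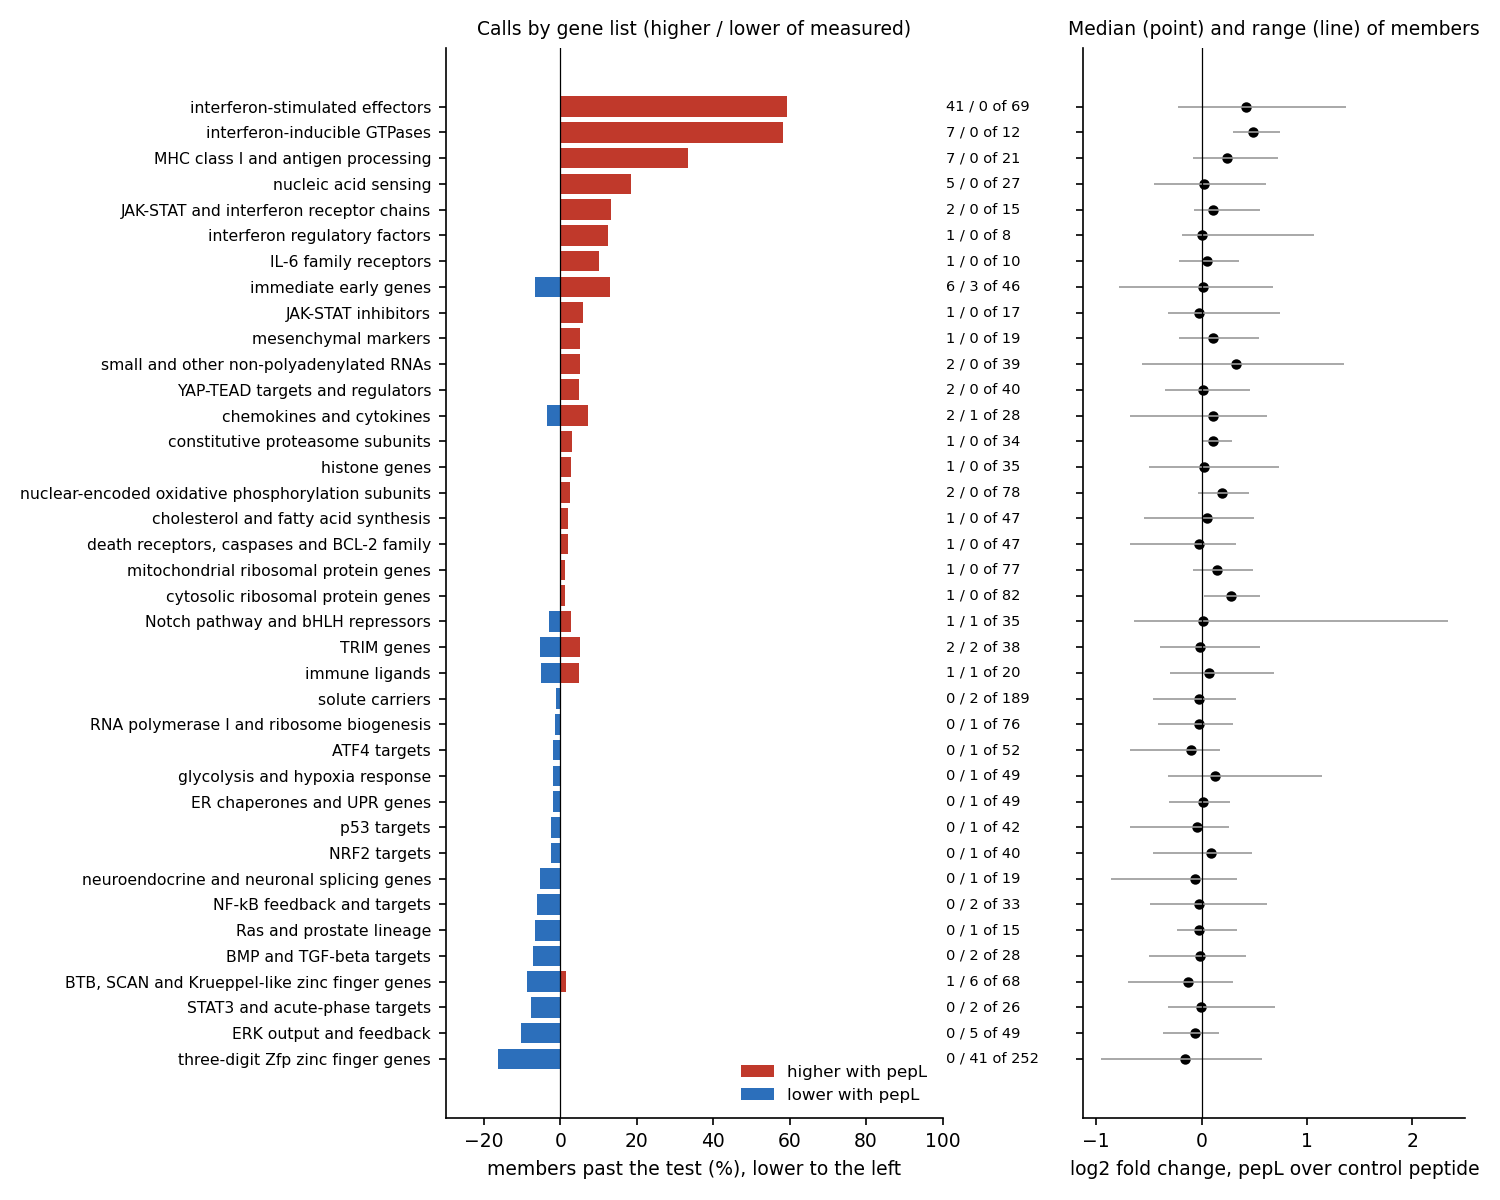
Left, the share of each list's measured genes that were higher (red, to the right) or lower (blue, to the left) in IL27_pepL against IL27_scr, with counts beside the bars; right, the median (point) and range (line) of the members' log2 fold changes. Lists with at least 1 call are drawn. The interferon-stimulated effectors (41 of 69 higher) and GTPases (7 of 12 higher) stand at the top and the Zfp genes with 3-digit numbers (41 of 252 lower) at the bottom.

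Genes for ribosomal proteins and mitochondrial respiration lay slightly above 0 as lists, and their calls depended on the libraries and the tool. In the main fit each list of this paragraph held 1 or 2 calls, where 1.09% of all genes were higher. Counts this small are no result about the lists. Over all genes tested 6201 of 12125 lay above 0. All 82 cytosolic ribosomal protein genes lay above 0, with a median log2 fold change of 0.28, and 1 passed edgeR's test, Rpl41, at 889, 1275 and 1326 CPM in IL27_pepL, against 675, 873 and 829 CPM in IL27_scr (0.55 ± 0.13, edgeR adjusted p = 0.0467). The list mean varied between libraries: IL27_pepL replicates 1, 2 and 3 stood at -0.0455, 0.230 and 0.338 on the log2 scale relative to the mean of all 9, against -0.242, 0.0103 and -0.0511 in IL27_scr and -0.0941, -0.125 and -0.0203 in plasmid control. IL27_pepL replicate 1 thus lay within the range of the other groups, while replicates 2 and 3 lay above it. DESeq2's Wald test called 33 of the 82 and limma-voom 0. With edgeR, called members numbered 72 without IL27_pepL replicate 1, where 9.22% of all genes were higher, and 0 without IL27_pepL replicate 3, where the median was 0.19, and 9 with the length and GC offset, where the median was 0.15. Nuclear-encoded subunits of oxidative phosphorylation had 76 of 78 above 0, a median of 0.20 and 2 calls, Uqcrh and Ndufb11 (0.42 ± 0.09 and 0.34 ± 0.08; adjusted p = 0.0218 and 0.0472). The 77 mitochondrial ribosomal protein genes had a median of 0.15 and 1 call, Mrpl11 (0.31 ± 0.06, adjusted p = 0.0191). The 34 constitutive proteasome subunits had a median of 0.11 and 1 call, Psma7 (0.29 ± 0.07, adjusted p = 0.0496). The 35 histone genes had a median of 0.02 and 1 call, H3f3a (0.39 ± 0.08, edgeR adjusted p = 0.0191). The 6 calls were lost without IL27_pepL replicate 2 or any IL27_scr replicate, and those of Rpl41, Ndufb11 and Psma7 also without IL27_pepL replicate 3 (adjusted p = 0.0874, 0.0753 and 0.0819). These 3 also missed the threshold with limma-voom and in the fit of the 6 libraries alone (adjusted p = 0.0890, 0.102 and 0.0999), as did Mrpl11 in that fit (0.0537). Psma7 missed it further with the length and GC offset (0.0504), the filter at 1 CPM and the removal of Rn45s.

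Some other RNAs and a calcium-binding family were also higher. Snora65, a small nucleolar RNA that guides pseudouridylation, had 2.84, 4.28 and 3.02 CPM in IL27_pepL, against 1.40, 1.76 and 1.65 CPM in IL27_scr (1.08 ± 0.18, edgeR adjusted p = 0.00896). Such RNAs lie in introns of host genes, and how overlapping reads were counted is not given in the sources used here. Mir155hg, the host transcript of a microRNA, had 1.08, 0.951 and 0.881 CPM in IL27_pepL, against 0.524, 0.523 and 0.362 CPM in IL27_scr (1.03 ± 0.24, adjusted p = 0.0423). These were the calls among 39 genes of the list of small and other non-polyadenylated RNAs, which took in Mir155hg by its name. The call of Snora65 was lost without IL27_scr replicate 1, with an adjusted p of up to 0.0532. That of Mir155hg was lost without IL27_pepL replicates 2 or 3, any IL27_scr replicate or plasmid control replicates 1 or 3, with an adjusted p of up to 0.131, and in the fit of the 6 libraries alone (adjusted p = 0.0728). Malat1, an abundant nuclear long non-coding RNA named after its value was seen, had 177, 171 and 139.5 CPM in IL27_pepL, against 125, 90.6 and 88.6 CPM in IL27_scr (0.68 ± 0.13, edgeR adjusted p = 0.0148). That call was lost without IL27_pepL replicate 2 or IL27_scr replicates 2 or 3, with an adjusted p of up to 0.0902. S100 genes, a list added after the values were seen, were higher in 4 of 8, with all 8 above 0, where 1.09% of all genes were higher. S100a4, which was also the sole call among 19 mesenchymal markers, had 197, 206 and 245 CPM in IL27_pepL, against 133, 152 and 158 CPM in IL27_scr (0.55 ± 0.09, edgeR adjusted p = 0.00956). S100a11, S100a6 and S100a10 were at 0.47 ± 0.08, 0.36 ± 0.08 and 0.33 ± 0.07 (edgeR adjusted p = 0.0101, 0.0378 and 0.0270). With the length and GC offset the changes of these 4 genes were 0.36, 0.29, 0.20 and 0.16, and S100a11 no longer passed (adjusted p = 0.0960). Without IL27_scr replicate 1 or 2 the list held 1 call and without IL27_pepL replicate 2, IL27_scr replicate 3 or plasmid control replicate 1 it held 2, as in the fit of the 6 libraries alone, against 7 without IL27_pepL replicate 1 (9.22% of all genes higher).

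The called genes differed in transcript length and base composition by direction. The 130 higher genes with an annotated transcript had a median length of 2483 bases and a median GC content of 51.7%, the 174 lower genes 4100 bases and 43.4%, and all 12062 genes with a value 3426 bases and 49.6%. The 60 lower Zfp-named genes had a median GC content of 40.9%, and all 318 measured Zfp-named genes had 44.5%. The part of length and base composition in the differences was not tested. With a per-library offset for both 116 of the 132 higher and 145 of the 174 lower calls were kept, and the total was 466. With IL27_pepL replicate 3 left out, 100 and 117 of these calls were kept. The higher calls outside the interferon, GTPase, sensing and MHC class I lists numbered 72, of which 57 were kept under the offset and 47 without IL27_pepL replicate 3. Of the 60 inside them 59 and 53 were kept.

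**Figure D5:**
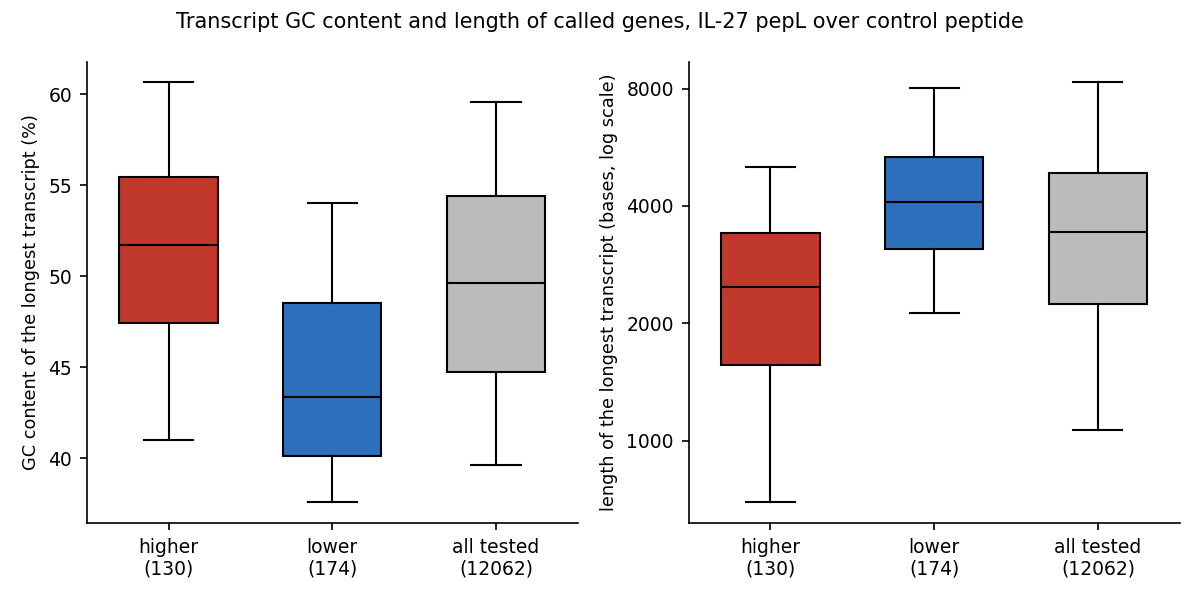
GC content (left, %) and length (right, bases, log scale) of the longest annotated transcript of the 130 higher and 174 lower genes in IL27_pepL against IL27_scr and of all 12062 genes tested with an annotation. Boxes span the quartiles with a line at the median, and whiskers run from the 5th to the 95th percentile; the lower genes have the lowest median GC content (43.4%) and the longest median length (4100 bases).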

How the data were processed

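RNA-seq read counts per gene were analysed for 9 libraries of transfected TC2R cells, 3 in each of 3 groups, of which 6 make up the comparison. The deposited values are raw counts made by the authors. The submitters' processing notes name FastQC, STAR 1.5.1, featureCounts (Subread 1.6.1), edgeR 3.22.5 and the mm10 build; which annotation was used, whether strand was used, how reads matching several genes were counted and how the 12125 genes of the table were chosen is not given in these sources. Total counts ran from 27609884 to 35959983 per library, and the biological coefficient of variation was 5.76%; counts within groups differed by more than counting error in each pair (chi-square over its degrees of freedom 3.04 to 32.8).

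All 9 libraries were fitted at once in edgeR 4.0.16 (R 4.3.3) with TMM scaling, filterByExpr (which removed 0 genes) and the quasi-likelihood test with group as the sole term. P-values were adjusted by Benjamini-Hochberg over 12125 genes, and a gene with an adjusted p under 0.05 is called changed. CPM values were computed from the deposited counts with TMM library sizes. Standard errors are the log2 fold change divided by the root of the F statistic. Alternatives were DESeq2 1.42.0 size factors and Wald test, limma 3.58.1 (voom), filters, removal of single genes, the 6 libraries alone, a replicate block, an offset per library for the length and GC content of transcripts, and the omission of each library in turn. The code was tested on simulated data with known changes.

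Positions, lengths and GC content come from GENCODE M21 (GRCm38), and promoter windows from RefSeq (GRCm38.p6). GENCODE held 12062 of the genes, looked up by symbol or, where that failed, by an unambiguous synonym. Genes were named by rule: the transgenes and receptors, the 12 largest and 12 smallest log2 fold changes of called genes (mean over the 6 libraries 1 CPM or more, no overlap between the groups), the 10 smallest p-values and up to 4 called members of each list (or the member of smallest p where none passed), passing over Gm and Rik names. Genes named outside it are marked as chosen after their values were seen; apart from those so marked, Bst2 and Apol9b were taken by their promoters, and genes listed as the remaining calls of a list or as markers were taken for completeness. The comparison, the rule and the 51 other lists were chosen with earlier results of these data known, and lists overlap. The lists of all Zfp-named genes and of S100 genes, and the alternative that joins the offset with the omission of IL27_pepL replicate 3, were added after the values were seen. Numbers were not taken as pairs because the labels do not say what they mark. Same-numbered IL27_pepL and IL27_scr libraries deviated together with correlations of 0.318, 0.109 and 0.097, and differently numbered ones with -0.235 to 0.13. If the numbers do mark pairs, the main fit leaves that pairing out. Some genes are not reported here.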

Additional observations from a re-analysis of the deposited data

How the results depend on the processing

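The count of 306 genes (132 higher and 174 lower in IL27_pepL) ranged from 69 to 1782 over the 9 omissions of 1 library, with 36 to 1118 higher and 29 to 664 lower, the extremes being the omissions of IL27_scr replicate 2 (69, and 29 lower), IL27_scr replicate 1 (36 higher) and IL27_pepL replicate 1 (1782, 1118 and 664). The share of higher genes among the calls was 43.1% in all libraries, 62.7% without IL27_pepL replicate 1, 58.0% without IL27_scr replicate 2 and 53.2% without IL27_scr replicate 3. DESeq2's Wald test called 793 (416 higher, 377 lower), the fit of the 6 libraries alone 165 (76 higher, 89 lower) and the length and GC offset 466 (218 higher, 248 lower). DESeq2 size factors, no filter, a filter at 1 CPM in 3 libraries, limma-voom, and removal of Il27 and Ebi3 or of Rn45s gave 296 to 306 calls. The offset without IL27_pepL replicate 3, chosen after seeing the data, gave 412. Of 83 called genes with a name given by the rule, 0 were lost with DESeq2's Wald test, which gave no adjusted p for 2 of them (Il20rb and Mir155hg), 0 with no filter or the block, 5 with the offset, 27 in the fit of 6 libraries, 17 without IL27_pepL replicate 3 and 52 without IL27_scr replicate 1. No called gene changed sign under any alternative.

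With the replicate number as a block, 1110 genes passed (572 higher, 538 lower). The labels do not say that a number marks a shared culture or day. IL27_pepL replicates 1 and 2 deviated most like the IL27_scr library of their own number (0.318 and 0.109). IL27_pepL replicate 3 deviated most like IL27_scr replicate 2 (0.13, against 0.097 for its own number). These values do not settle whether the numbers are pairs.

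With 3 libraries a group, genes that miss the threshold are not shown to be equal between the peptides.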
